A study of Homo sapiens with 6 samples.

Results

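The enzymes described here modify transfer RNA. They are 51 genes of the 58825 in the count table, taken from a list of human tRNA-modifying enzymes that leaves out the NSUN family and TRDMT1, and all 51 were matched to an Ensembl identifier and tested. They were grouped by the modification they make: methylation (16 genes), pseudouridine (6), wobble uridine (12), adenosine deamination (3), dihydrouridine (4), queuosine (2), and a last group of 8 that act on the purine beside the anticodon or on the 5′ end of tRNA-His. The cells were FaDu, an established line of a hypopharyngeal squamous carcinoma. One group of 3 libraries carried the short hairpin RNA shNSUN2 and the other group of 3 libraries (FaDu) carried none, so the hairpin, its delivery and the loss of NSUN2 cannot be told apart. The labels do not say whether the 3 replicates came from separate cultures, and p-values measure only the spread between these libraries.

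tRNAs carry more modified bases than any other class of RNA. Modifications in the anticodon loop tune how codons are read, and those in the body of the molecule stabilise its fold. NSUN2 itself places 5-methylcytosine on tRNA. In yeast, tRNA that lacks both the methylation made by the NSUN2 counterpart and the 7-methylguanosine made by the counterpart of METTL1 and WDR4 is rapidly degraded. Many of the enzymes work as pairs of a catalytic and a partner subunit, which allows levels of both transcripts to be set side by side.

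NSUN2 had 50.4, 34.7 and 39.6 CPM in shNSUN2 libraries, against 169, 173 and 156 CPM in FaDu libraries, which is 25.1% of the FaDu mean (log2 fold change -2.0 with SE 0.16, edgeR adjusted p = 0.000526). All 13 squamous epithelial markers were detected in both groups, with a summed 3540 to 4029 CPM in shNSUN2 libraries and 6029 to 6128 CPM in FaDu libraries. Total estimated counts were 58577723 to 72788971 in shNSUN2 libraries and 53612358 to 72043755 in FaDu libraries. The shNSUN2 libraries differed among themselves in how levels went with GC content: across 14030 protein-coding genes, the rank correlation (Spearman) between transcript GC content and a library's log2 level relative to the others of its group was -0.405, -0.286 and 0.509 in shNSUN2 replicates 1, 2 and 3, and 0.183, -0.244 and 0.0631 in FaDu replicates 1, 2 and 3. Small amounts of transcripts listed as markers of other cell types were also present. The 8 plasma cell markers summed to 8.28, 2.31 and 2.90 CPM in shNSUN2 libraries, against 0, 0 and 0.267 CPM in FaDu libraries, where IGKC, IGHG2, IGLC2 and IGLC3 were listed at 0. The 8 prostate markers summed to 68.4, 61.1 and 52.1 CPM in shNSUN2 libraries, against 29.3, 32.2 and 29.3 CPM in FaDu libraries, with KLK4 and MSMB listed at 0 in FaDu. In both lists every shNSUN2 library was above every FaDu library. The 7 smooth muscle markers summed to 39.5 to 53.2 CPM in shNSUN2 libraries and 38.4 to 42.1 CPM in FaDu libraries, where ACTG2 and CNN1 were listed at 0. A list of 7 leukocyte markers summed to 37.8 to 46.2 CPM in shNSUN2 libraries and 31.3 to 51.6 CPM in FaDu libraries. Only 4 of these 7 were detected in shNSUN2 libraries, and 2 in FaDu libraries, where PTPRC, CD3E, CD3D, MS4A1 and LYZ were listed at 0. Both of these lists overlapped between groups. The part of these cell types in the results below was not tested.

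Of the 51 enzymes, 7 rose in shNSUN2 cells and none fell by edgeR's quasi-likelihood test at a Benjamini-Hochberg adjusted p under 0.05 over 19081 genes. The 7 were ADAT3, DUS3L, TRMT61A, CTU2, WDR4, TRMU and TRMT2A. They are 13.7% of the members, where 8.54% of all genes tested were called higher and 9.97% lower, or 18.5% in either direction. At an unadjusted p under 0.05 there were 18 higher and 2 lower of the 51, where 3133 and 3301 of all 19081 genes were. The median log2 fold change of the members was 0.21, beside -0.01 over all genes tested, and 43 of the 51 values were above 0, where 49.6% of all genes were. In 20 of the 51 (39.2%) every shNSUN2 library was above every FaDu library and in 2 (PUS10 and MTO1) every one was below, while over all genes those shares were 20.3% and 22.1%. The summed level of the members was 1742, 1509 and 1961 CPM in shNSUN2 libraries, against 1460, 1453 and 1430 CPM in FaDu libraries, so the groups did not overlap.

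The count of 7 changed with the libraries used. It was 3, 11 and 7 without shNSUN2 replicate 1, 2 or 3, and 2, 1 and 1 without FaDu replicate 1, 2 or 3. All genes called higher made up 4.46%, 8.31% and 10.5% in the first 3 of these fits and 3.10%, 2.38% and 2.51% in the last 3. The members' share was 5.88%, 21.6% and 13.7% without shNSUN2 replicate 1, 2 or 3, and 3.92%, 1.96% and 1.96% without FaDu replicate 1, 2 or 3, so that without FaDu replicate 2 or 3 it was not above that of all genes. Of the 7 called without shNSUN2 replicate 3, 6 were also called with it. The median log2 fold change of the members was 0.16 to 0.30 in those fits.

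**Figure D1:**
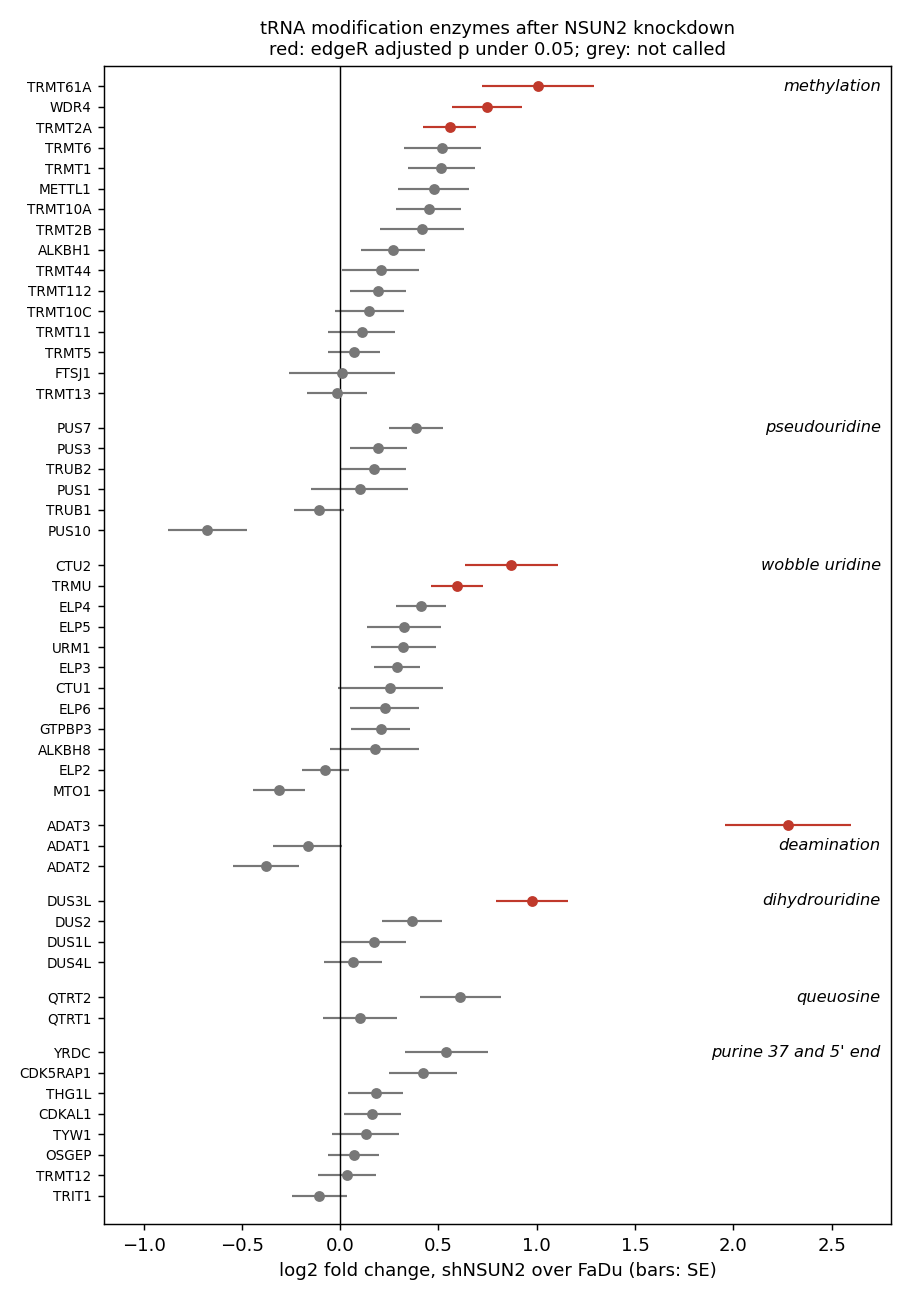
Log2 fold change (shNSUN2 over FaDu) of the 51 tRNA modification enzymes on the horizontal axis, grouped by modification down the page, with bars for the SE. The 7 red points passed the edgeR test and all lie above 0, from 0.56 (TRMT2A) to 2.28 (ADAT3), and 43 of the 51 points lie above 0.

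Deamination held the largest difference. ADAT3 and ADAT2 form the deaminase that turns adenosine at the wobble position into inosine, which lets a tRNA read several codons; ADAT2 is the catalytic subunit and ADAT3 its partner. ADAT3 (chromosome 19 from 1905378 to 1913447, GRCh38) had 2.04, 2.31 and 3.41 CPM in shNSUN2 libraries, against 0.638, 0.404 and 0.548 CPM in FaDu libraries. Its mean was 2.58 ± 0.725 CPM in shNSUN2 cells and 0.530 ± 0.118 CPM in FaDu cells (SD, n = 3 each), a 4.86-fold difference (log2 fold change 2.28 with SE 0.32, edgeR adjusted p = 0.00376). The groups were well apart, and the call held in each of the 6 fits that left out 1 library (log2 fold change 2.03 to 2.43, edgeR adjusted p = 0.00691 to 0.0221). ADAT3 was the least abundant member in FaDu, and its estimated counts were 138, 137 and 230 in shNSUN2 libraries, against 39, 22 and 41 in FaDu libraries. One sequenced fragment may often stand for 4 of these units, so few fragments lie behind the FaDu values.

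ADAT3 lies within SCAMP4, which encodes a secretory carrier membrane protein, on the same strand, and 35.4% of its exonic bases are shared. SCAMP4 had 83.8, 82.9 and 67.1 CPM in shNSUN2 libraries, against 77.0, 36.5 and 41.2 CPM in FaDu libraries (log2 fold change 0.60 with SE 0.28, edgeR adjusted p = 0.174). The groups overlapped in SCAMP4. Its mean was 77.9 CPM in shNSUN2 cells and 51.5 CPM in FaDu cells, far above the 2.58 and 0.530 CPM of ADAT3. How the authors' counting divided reads between the 2 genes was not tested. The catalytic subunit ADAT2 did not pass the test, with 9.95, 8.32 and 7.79 CPM in shNSUN2 libraries, against 9.86, 11.6 and 12.4 CPM in FaDu libraries (log2 fold change -0.38 with SE 0.17, edgeR adjusted p = 0.157). ADAT1, which deaminates the adenosine beside the anticodon of tRNA-Ala, was at a log2 fold change of -0.17. Both overlapped between groups.

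Among the 4 dihydrouridine synthases, which reduce uridines mostly in the D loop, 1 rose, where 8.54% of all genes tested did. DUS3L (chromosome 19 from 5784832 to 5791238) had 59.2, 52.0 and 84.2 CPM in shNSUN2 libraries, against 33.0, 33.5 and 32.8 CPM in FaDu libraries. Its FaDu libraries lay within 1 CPM of each other and its lowest shNSUN2 library was well above them (log2 fold change 0.98 with SE 0.18, edgeR adjusted p = 0.0117, 1.97-fold). Without FaDu replicate 2 or 3 the adjusted p was 0.0513 and 0.0557, at log2 fold changes of 0.99 and 0.97. DUS3L shares 146 exonic bases (4.0%) with AC011499.1. Log2 fold changes of DUS2, DUS1L and DUS4L were 0.37, 0.17 and 0.07. DUS2 did not overlap between groups but missed the test (log2 fold change 0.37 with SE 0.15, edgeR adjusted p = 0.137).

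Of 16 enzymes in the methylation group 3 rose (18.75%, where 8.54% of all genes tested did) and 13 did not pass the test. The group was not tested against that share. Its median log2 fold change was 0.34. TRMT61A and TRMT6 form the methyltransferase that makes 1-methyladenosine in the T loop, and TRMT61A holds the active site. TRMT61A (chromosome 14 from 103529184 to 103537073) had 24.7, 16.3 and 37.8 CPM in shNSUN2 libraries, against 14.8, 12.5 and 12.0 CPM in FaDu libraries (log2 fold change 1.01 with SE 0.28, edgeR adjusted p = 0.0441, 2.01-fold). The shNSUN2 libraries spread widely, and without shNSUN2 replicate 3 the log2 fold change was 0.65 (adjusted p = 0.0596). The call was also lost without shNSUN2 replicate 1 and without FaDu replicate 1, 2 or 3 (adjusted p = 0.0939, 0.0899, 0.137 and 0.147). Its partner TRMT6 had 37.9, 23.3 and 28.3 CPM in shNSUN2 libraries, against 21.2, 22.8 and 18.4 CPM in FaDu libraries, not overlapping but not past the test (log2 fold change 0.52 with SE 0.20, edgeR adjusted p = 0.105).

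WDR4 and METTL1 make the 7-methylguanosine of the variable loop, with METTL1 as the enzyme and WDR4 as the scaffold that holds it on tRNA. WDR4 (chromosome 21 from 42843094 to 42879568) had 37.2, 31.4 and 49.2 CPM in shNSUN2 libraries, against 24.9, 21.8 and 23.4 CPM in FaDu libraries (log2 fold change 0.75 with SE 0.18, edgeR adjusted p = 0.0255, 1.68-fold). METTL1 had 13.4, 13.1 and 18.1 CPM in shNSUN2 libraries, against 12.1, 9.58 and 10.4 CPM in FaDu libraries and did not pass the test (log2 fold change 0.48 with SE 0.18, edgeR adjusted p = 0.106). In both genes every shNSUN2 library was above every FaDu library. The WDR4 call was lost without shNSUN2 replicate 1 or FaDu replicate 1, 2 or 3, at adjusted p = 0.0610, 0.0721, 0.103 and 0.0954 and log2 fold changes of 0.79, 0.80, 0.70 and 0.75.

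TRMT2A, which makes 5-methyluridine in the T loop of cytosolic tRNA, had 26.7, 23.5 and 25.4 CPM in shNSUN2 libraries, against 18.4, 15.6 and 17.4 CPM in FaDu libraries (chromosome 22 from 20111866 to 20117392). Both groups were tight, and the difference was 1.47-fold (log2 fold change 0.56 with SE 0.13, edgeR adjusted p = 0.0255). The call was lost without shNSUN2 replicate 1 (adjusted p = 0.0720) and without FaDu replicate 1, 2 or 3 (0.0725, 0.118 and 0.0968). TRMT2A shares 393 exonic bases, 9.9% of its own, with RANBP1 on the other strand. RANBP1, a cofactor of the nuclear transport GTPase Ran, was itself higher (log2 fold change 1.10 with SE 0.16, edgeR adjusted p = 0.00473), and no source used here says that strand was kept. The part of RANBP1 reads in the TRMT2A values was not tested.

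The other methylation enzymes did not pass the test. TRMT1, which dimethylates a guanosine between the D and anticodon arms, and TRMT10A, which methylates a guanosine near the D arm, had log2 fold changes of 0.51 and 0.45, each without overlap between groups. The mitochondrial TRMT2B and TRMT10C were at 0.42 and 0.15. TRMT11 and its activator TRMT112 were at 0.11 and 0.19, and the dioxygenase ALKBH1 at 0.27. TRMT5, TRMT44, TRMT13 and FTSJ1 had 0.07, 0.21, -0.02 and 0.01. FTSJ1, the 2′-O-methyltransferase of the anticodon loop, spread widely within shNSUN2, with 70.2, 48.7 and 107 CPM in shNSUN2 libraries, against 63.5, 83.1 and 78.1 CPM in FaDu libraries.

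**Figure D2:**
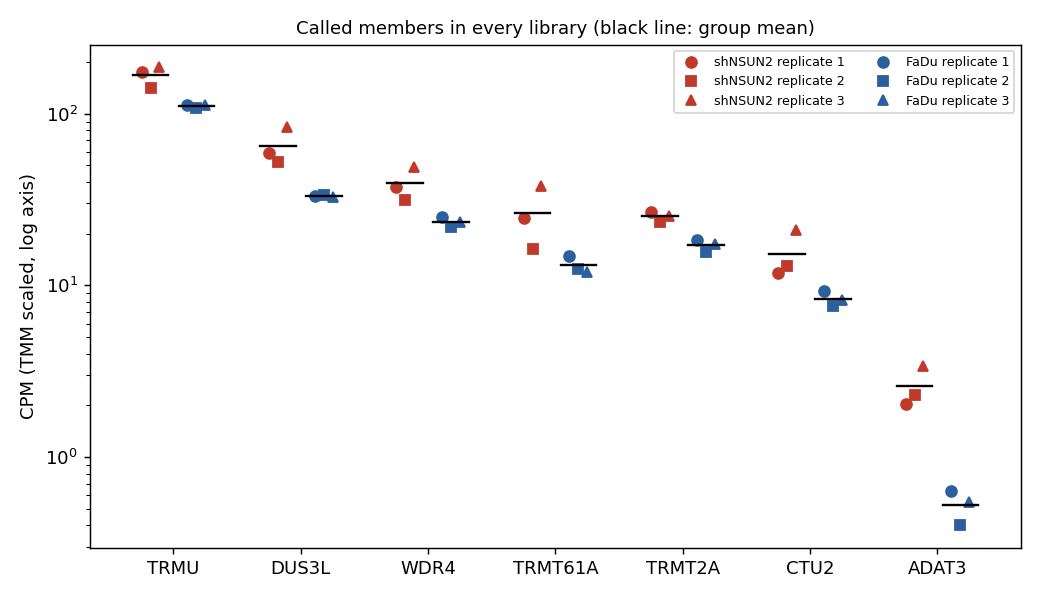
TMM-scaled CPM on a log axis for the 7 called enzymes in every library, with shNSUN2 (red) left of FaDu (blue), 1 symbol per replicate and a black line at the group mean. No enzyme overlaps between groups, and replicate 3 of shNSUN2 (triangle) is the highest library in 6 of the 7.

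Wobble uridine enzymes make the modified uridine at the first anticodon position that reads A- and G-ending codons. Of 12, 2 rose (16.7%, where 8.54% of all genes tested did) and 10 did not pass the test (median log2 fold change 0.27). The group was not tested against that share. TRMU, which adds sulphur to the wobble uridine of mitochondrial tRNAs, was the most abundant of the 7 called enzymes by CPM and had 176, 141 and 186 CPM in shNSUN2 libraries, against 113, 108 and 112 CPM in FaDu libraries (chromosome 22 from 46330875 to 46357340). The groups were apart (log2 fold change 0.59 with SE 0.13, edgeR adjusted p = 0.0194, 1.51-fold), but the call was lost without shNSUN2 replicate 1 (adjusted p = 0.0616) or FaDu replicate 1, 2 or 3 (0.0740, 0.0885 and 0.0840). CTU2 (chromosome 16 from 88706463 to 88715386) is a subunit of the cytosolic enzyme that adds sulphur to the wobble uridine of cytosolic tRNAs. It had 11.9, 12.9 and 21.0 CPM in shNSUN2 libraries, against 9.22, 7.63 and 8.18 CPM in FaDu libraries (log2 fold change 0.87 with SE 0.24, edgeR adjusted p = 0.0386, 1.83-fold). Without FaDu replicate 1, 2 or 3 the adjusted p of CTU2 was 0.0854, 0.133 and 0.128. Without shNSUN2 replicate 3, its highest library, its log2 fold change was 0.57 (edgeR adjusted p = 0.0333). CTU2 shares 294 exonic bases (8.3%) with the antisense transcript AC138028.6 and 49 (1.4%) with PIEZO1, and reads of overlapping genes cannot be told apart if strand was not kept. Its partner CTU1 was low and overlapped between groups, with 4.88, 3.50 and 6.49 CPM in shNSUN2 libraries, against 4.97, 3.34 and 4.14 CPM in FaDu libraries (log2 fold change 0.26 with SE 0.27, edgeR adjusted p = 0.551).

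No Elongator subunit passed the test. Elongator is the complex that starts the modification of wobble uridine, and ELP3 is its catalytic subunit. Log2 fold changes were -0.08 for ELP2, 0.29 for ELP3, 0.41 for ELP4, 0.32 for ELP5 and 0.23 for ELP6. ELP3, ELP4 and URM1 did not overlap between groups, and ELP4 had 20.9, 22.4 and 20.2 CPM in shNSUN2 libraries, against 15.4, 15.5 and 16.8 CPM in FaDu libraries (log2 fold change 0.41 with SE 0.13, edgeR adjusted p = 0.0592). URM1, the sulphur carrier of the cytosolic thiolation, and ALKBH8, which completes the side chain, were at 0.32 and 0.18. MTO1 and GTPBP3, which together add the taurine side chain of the same mitochondrial uridine that TRMU thiolates, were at -0.31 and 0.21. MTO1 had 34.2, 32.5 and 26.9 CPM in shNSUN2 libraries, against 37.3, 39.6 and 39.1 CPM in FaDu libraries, every shNSUN2 library being below every FaDu library, without passing the test (log2 fold change -0.31 with SE 0.13, edgeR adjusted p = 0.145).

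None of the 6 pseudouridine synthases passed the edgeR test, where 18.5% of all genes did in either direction. At an unadjusted p under 0.05, 1 was higher and 1 lower, where 3133 and 3301 of all 19081 genes were. By DESeq2 1 was lower, where 9.76% of all genes were. The one lower was PUS10, which modifies the T loop, with 7.23, 6.33 and 4.75 CPM in shNSUN2 libraries, against 8.44, 10.5 and 10.3 CPM in FaDu libraries (log2 fold change -0.67 with SE 0.20, edgeR adjusted p = 0.0522). There was no overlap, and the adjusted p was 0.0343 by DESeq2, within a range of 0.0200 to 0.166 over all alternatives. PUS7, a stand-alone synthase of tRNA and mRNA, had 45.6, 35.2 and 36.3 CPM in shNSUN2 libraries, against 29.3, 30.3 and 30.0 CPM in FaDu libraries (log2 fold change 0.38 with SE 0.14, edgeR adjusted p = 0.0925). PUS3, PUS1, TRUB1 and TRUB2 were at log2 fold changes of 0.19, 0.10, -0.11 and 0.17.

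Queuosine replaces the wobble guanosine of some tRNAs, and is inserted by QTRT1, the catalytic subunit, with QTRT2. QTRT2 had 31.8, 19.0 and 23.1 CPM in shNSUN2 libraries, against 18.3, 14.7 and 15.4 CPM in FaDu libraries, not overlapping but not past the test (log2 fold change 0.61 with SE 0.21, edgeR adjusted p = 0.0770). QTRT1 overlapped between groups, with a log2 fold change of 0.10. In the last group none of the 8 passed the test, where 8.54% of all genes were called higher and 9.97% lower. YRDC, which makes the precursor of threonylcarbamoyl-adenosine, had 33.7, 26 and 47.5 CPM in shNSUN2 libraries, against 25.2, 24.7 and 23.9 CPM in FaDu libraries (log2 fold change 0.54 with SE 0.21, edgeR adjusted p = 0.114). CDK5RAP1, a methylthiotransferase of mitochondrial tRNA, was at 0.42 and did not overlap either. CDKAL1, OSGEP, TYW1, TRMT12, TRIT1 and THG1L had log2 fold changes between -0.11 (TRIT1) and 0.18 (THG1L).

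Partner subunits were compared by the ratio of their CPM per exonic kilobase within each library, in 7 pairs. ADAT3 stood to ADAT2 at 0.658, 0.890 and 1.40 in shNSUN2 libraries, against 0.207, 0.112 and 0.141 in FaDu libraries. CTU1 stood to CTU2 at 0.696, 0.459 and 0.522 in shNSUN2 libraries, against 0.912, 0.740 and 0.857 in FaDu libraries. METTL1 to WDR4 was 0.377, 0.437 and 0.384 in shNSUN2 libraries, against 0.507, 0.459 and 0.466 in FaDu libraries. These 3 pairs and MTO1 to GTPBP3 (0.460 to 0.749 in shNSUN2, 0.788 to 0.948 in FaDu) did not overlap between groups. An exact permutation test (two-sided) gave each of them p = 0.1, below which 3 libraries a group cannot go, or 0.175 adjusted over the 7 pairs. ADAT3, CTU2 and WDR4 were themselves called, so the ratios that hold them are not separate from those calls. Over all genes, single-gene CPM did not overlap in 20.3% (higher) and 22.1% (lower). The share among ratios of other gene pairs was not computed. TRMT6 to TRMT61A, TRMT11 to TRMT112 and QTRT1 to QTRT2 overlapped (exact p = 0.3, 1 and 0.2).

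**Figure D3:**
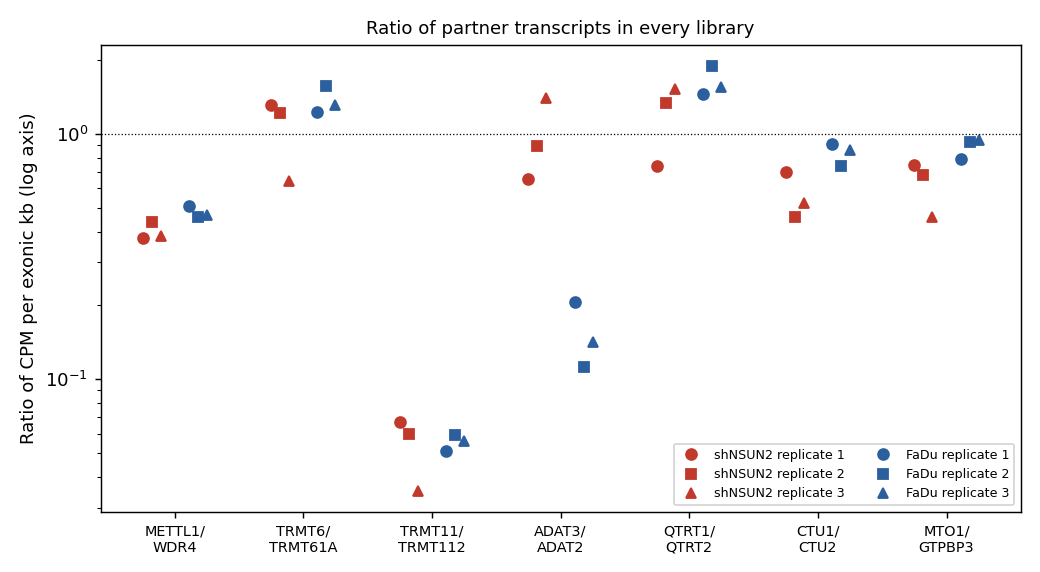
Ratio of the CPM per exonic kilobase of 2 partner transcripts on a log axis, in every library, for 7 pairs, with shNSUN2 (red) left of FaDu (blue) and a dotted line at a ratio of 1. ADAT3 to ADAT2 is 0.658 to 1.40 in shNSUN2 libraries and 0.112 to 0.207 in FaDu libraries.

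Levels differed widely among the enzymes. Per exonic kilobase, the member mean ran from 0.775 to 50.4 CPM in shNSUN2 cells (median 6.36) and from 0.237 to 44.1 CPM in FaDu cells (median 5.89). TRMT112, the activator shared by several methyltransferases, was the highest in both groups, followed by FTSJ1 and DUS1L in both. ADAT3 was the lowest of 51 in FaDu cells and 49th in shNSUN2 cells, where ELP4 and PUS10 were lower. The annotated exonic length of ELP4 is 27306 bases, of which 5241 are shared with PAX6.

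The called enzymes had GC-rich transcripts. Transcript GC content was 59.6% to 71.8% in the 7 called and had a median of 46.4% in the other 44, of which 3 (GTPBP3, DUS1L and CTU1) reached 59.6% or more. Across the 51 members, the Spearman correlation of log2 fold change with GC content was 0.54, and across 19033 genes with a known GC content it was 0.07. These are descriptions: all points come from the same 6 libraries. Of the 9 members at 60% GC or more, 6 rose, where 10.9% of all genes in that range did. Of the 15 members at 50% to 60%, 1 rose, where 10.2% of all genes did. None of the 18 at 40% to 50% or the 9 under 40% rose, where 7.79% and 4.87% of all genes did. The highest library was shNSUN2 replicate 3 in 27 of the 51 members and in 28.6% of all genes. The median log2 level of the members relative to the FaDu mean was 0.24, 0.08 and 0.41 in shNSUN2 replicates 1, 2 and 3, and -0.02, -0.02 and -0.04 over all genes.

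With offsets for GC content and length in the fit, all 7 calls remained, with log2 fold changes of 0.49 (TRMT2A) to 2.18 (ADAT3). The members called then numbered 14 higher and 1 lower, where 13% of all genes were higher and 12.3% lower. The 7 added were TRMT1, TRMT10A, PUS7, ELP3, ELP4, DUS2 and QTRT2, and the one lower was PUS10.

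**Figure D4:**
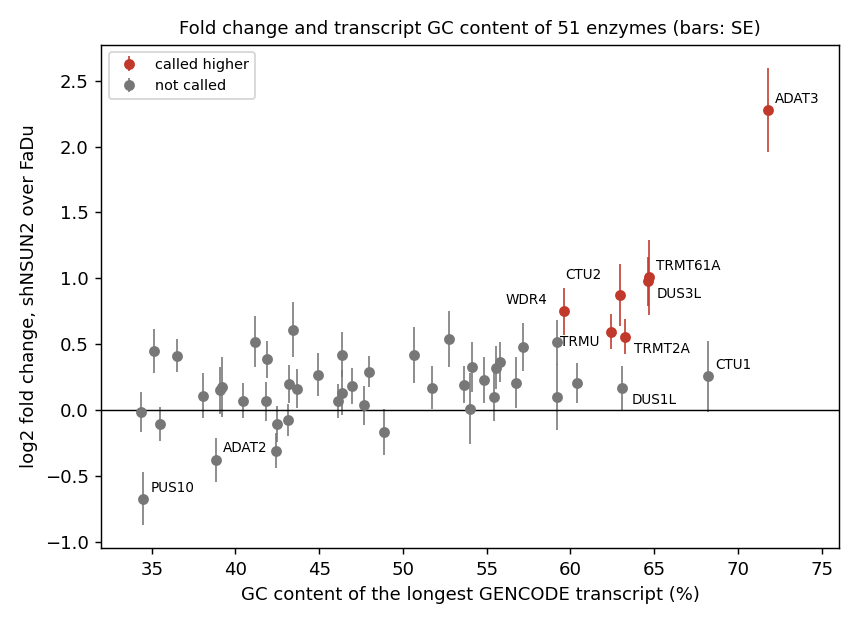
Log2 fold change (shNSUN2 over FaDu, bars for the SE) against the GC content of the longest annotated transcript in percent, for the 51 enzymes. The 7 called enzymes (red) lie between 59.6% and 71.8% GC, and the 44 others (grey) have a median of 46.4%.

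Promoter windows of 250 bases before to 50 after the transcription start were found in RefSeq (GRCh38.p14) for 43 of the 51 enzymes, among them 6 of the 7 called (not TRMT2A). Of 5 short motifs searched on both strands, the core CCGGAAG bound by ETS factors was held by 14 of the 43 (32.6%) and by 3 of the 6 called, and by 17.9% of the promoters of 12273 genes tested and 10.7% of all 27305 promoters. No matches to different motifs overlap in the windows shown. The share of member promoters with the palindrome CACGTG (E-box) was 9.30%, with the NRF1 motif 11.6%, with TGACGTCA (CRE) 11.6% and with CCAAT 30.2%, beside 9.94%, 10.9%, 3.20% and 36.4% of the promoters of genes tested. Of the 6 called, 1 held the E-box, 0 the NRF1 motif, 1 the CRE and 1 CCAAT. A match is a run of letters and not a binding site. The 3 called enzymes with the ETS core and ADAT3, which has the largest difference and none of the 5 motifs, are shown 5′ to 3′ on the strand of the gene, with CCGGAAG or its reverse complement CTTCCGG in capitals.
DUS3L promoter, chr19:5791114-5791413 (- strand): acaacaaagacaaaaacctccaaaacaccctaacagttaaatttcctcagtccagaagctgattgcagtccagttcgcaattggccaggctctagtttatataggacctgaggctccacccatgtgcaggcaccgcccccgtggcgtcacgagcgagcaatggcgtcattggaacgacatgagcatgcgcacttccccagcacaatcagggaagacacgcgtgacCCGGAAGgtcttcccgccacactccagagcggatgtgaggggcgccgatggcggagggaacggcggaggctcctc
TRMU promoter, chr22:46335464-46335763 (+ strand): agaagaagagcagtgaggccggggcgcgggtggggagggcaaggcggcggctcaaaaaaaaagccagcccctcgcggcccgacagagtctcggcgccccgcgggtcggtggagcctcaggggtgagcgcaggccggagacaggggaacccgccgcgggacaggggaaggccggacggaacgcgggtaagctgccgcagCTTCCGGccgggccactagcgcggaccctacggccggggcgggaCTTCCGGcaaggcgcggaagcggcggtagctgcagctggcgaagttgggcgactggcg
TRMT61A promoter, chr14:103528946-103529245 (+ strand): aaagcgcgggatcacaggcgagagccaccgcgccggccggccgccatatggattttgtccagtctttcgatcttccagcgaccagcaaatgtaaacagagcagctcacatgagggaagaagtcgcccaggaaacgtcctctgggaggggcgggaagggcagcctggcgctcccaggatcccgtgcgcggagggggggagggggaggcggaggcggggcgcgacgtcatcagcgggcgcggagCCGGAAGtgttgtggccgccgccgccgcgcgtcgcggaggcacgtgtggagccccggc
ADAT3 promoter, chr19:1905149-1905448 (+ strand): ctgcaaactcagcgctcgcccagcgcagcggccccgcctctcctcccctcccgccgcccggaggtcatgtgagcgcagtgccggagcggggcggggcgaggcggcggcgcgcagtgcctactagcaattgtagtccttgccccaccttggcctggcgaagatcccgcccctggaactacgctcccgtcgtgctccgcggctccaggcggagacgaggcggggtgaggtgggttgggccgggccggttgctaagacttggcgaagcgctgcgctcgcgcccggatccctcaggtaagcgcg
The ADAT3 window is also that of SCAMP4 in RefSeq. The TRMU window follows the RefSeq start and lies inside the GENCODE bounds of the gene (46330875 to 46357340), downstream of their first base. The 6 windows of called enzymes had a median of 70.7% GC and 36.5 CpG, those of the other 37 members 59.3% and 21, and those of the genes tested 65.0% and 26.

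Other genes of tRNA modification were taken from a list of 42, of which 41 were tested. Of these, 5 rose and none fell (12.2%, beside the 8.54% of all genes), and DESeq2 gave 5 and 0 (12.2% higher, beside 9.13% of all genes). At an unadjusted p under 0.05, 11 of the 41 were higher and none lower, where 3133 and 3301 of all 19081 genes were. The median log2 fold change was 0.23. TRMO, which methylates the threonylcarbamoyl-adenosine beside the anticodon, had 7.70, 8.11 and 6.28 CPM in shNSUN2 libraries, against 3.84, 4.51 and 3.38 CPM in FaDu libraries (log2 fold change 0.91 with SE 0.19, edgeR adjusted p = 0.0168). HSD17B10, the dehydrogenase that works with TRMT10C as a mitochondrial tRNA methyltransferase, had 94.7, 94.2 and 129 CPM in shNSUN2 libraries, against 64.0, 66.6 and 62.8 CPM in FaDu libraries (log2 fold change 0.72 with SE 0.15, edgeR adjusted p = 0.0166). TRMT10C itself had 30.3, 21.4 and 21.7 CPM in shNSUN2 libraries, against 22.4, 24.2 and 19.6 CPM in FaDu libraries and did not pass. The other 3 were pseudouridine synthases or related proteins. PUSL1, RPUSD1 and RPUSD4 rose with log2 fold changes of 0.78, 0.88 and 0.56 (SE 0.19, 0.24 and 0.15; edgeR adjusted p = 0.0286, 0.0407 and 0.0404). Of the 41 genes, 2 (4.88%) were called higher without shNSUN2 replicate 1, where 4.46% of all genes were. Without FaDu replicate 1, 2 or 3 it was 1 (2.44%), 2 (4.88%) and 0, where 3.10%, 2.38% and 2.51% of all genes were, so the share was below that of all genes without FaDu replicate 1 or 3. Each of the 5 lost its call without FaDu replicate 3, at adjusted p = 0.0761 (TRMO), 0.0796 (HSD17B10), 0.104 (PUSL1), 0.131 (RPUSD1) and 0.147 (RPUSD4) by edgeR.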

How the data were processed

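The authors deposited 1 table of estimated counts per Ensembl gene for 6 libraries, as whole numbers. Tools named in the submitters' processing notes are Bowtie 0.12.2, HISAT2 2.0 and StringTie 1.3.0, with no roles, and the build there is the mouse mm8, which cannot give human identifiers. The human build, library selection and strandedness (not given in the sources used here) are unknown. Values of 4 were 3.25 to 3.81 times as frequent as the mean of 3 and 5, so 1 fragment may often count as 4 units and no counting interval is given. Symbols came from a gene name table (58472 identifiers matched), positions, lengths and overlaps from GENCODE 29 (GRCh38, 58552 matched), and GC content from each gene's longest transcript.

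The test was that of edgeR 4.0.16 (R 4.3.3) (filterByExpr with a minimum count of 10 and minimum total of 15, TMM scaling, glmQLFit and glmQLFTest with robust estimation, group alone in the design), and p-values were adjusted by Benjamini-Hochberg over 19081 genes. The fit was also run on simulated counts with known folds. These held neither the GC trends of the libraries nor the counts in units of 4, so that run cannot speak to either. CPM are TMM-scaled. SE is the log2 fold change divided by the square root of F. Alternatives were RLE scaling, library totals, no filter (total above 0), DESeq2 1.42.0, counts divided by 4, a replicate block, offsets from an additive smooth of GC content and length (mgcv), both together, and leaving out each library. By rule, values in every library are given for called members, members changed by a log2 fold of at least 1, the member with the smallest adjusted p of each group, partners of called members, and called genes of the other tRNA modification genes; other values shown were chosen after they were seen. Promoter motifs, GC content and per-library counts were also looked at after the values. The members and lists were chosen with earlier results of these data known. The labels name no batch. One leukocyte marker is not reported here and was left out of its list.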

Additional observations from a re-analysis of the deposited data

How the results depend on the processing

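No call of a member or of NSUN2 changed direction under any alternative run. The 7 members called higher were 7 (13.7%) under RLE scaling, library totals, no filter and counts divided by 4, where 4.52% to 10.5% of all genes were. They were 9 by DESeq2 (17.6%, beside 9.13% of all genes) and 14 with GC and length offsets (27.5%, beside 13%). When 1 library was left out they were 1 to 11 (1.96% to 21.6%, beside 2.38% to 10.5% of all genes). Their share was not above that of all genes without FaDu replicate 2 or 3. Members called lower numbered 1 (PUS10) by DESeq2, with GC and length offsets and with counts divided by 4, and 0 otherwise. In those 3 fits 9.76%, 12.3% and 13.6% of all genes were called lower. The 5 other tRNA modification genes called higher were 8 with GC and length offsets (19.5%, beside 13% of all genes). When 1 library was left out they were 0 to 5 (0 to 12.2%, beside 2.38% to 10.5% of all genes). Over all genes, calls were 1629 higher and 1903 lower, 969 and 1401 with the replicate block, and 2479 and 2340 with GC and length offsets. No pairing by replicate number was seen in the levels, and the labels do not say whether libraries were prepared in pairs. Deviations of same-numbered libraries correlated at -0.04, 0.02 and 0.01 for numbers 1, 2 and 3. Not every library correlated best with its own number. With the replicate block 4 members (7.84%) and 2 other genes (4.88%) were called higher, beside 5.08% of all genes. With the block and GC and length offsets together they were 8 (15.7%) and 4 (9.76%), beside 8.64% of all genes. NSUN2 stayed called throughout, at log2 fold changes of -2.15 to -1.88 when 1 library was left out. Causes of these changes were not tested. Fits without 1 library also have fewer degrees of freedom, and the part of that in the counts was not tested. ADAT3 was called in all 14 alternatives, DUS3L in 12, WDR4, CTU2 and TRMU in 10 each, and TRMT2A and TRMT61A in 8 each. By mean CPM in FaDu cells ADAT3, TRMT10A and CTU1 had the lowest levels of the members. Alternatives for single genes of the other tRNA modification genes were added after seeing the data.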

Other observations

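Genes that share exons with an enzyme moved in several ways, and were looked at because their reads could be shared. DGCR8, the partner of Drosha in microRNA processing, and RANBP1 both share exonic bases with TRMT2A on chromosome 22, and both rose. The shared bases were 12 (0.3% of those of TRMT2A) for DGCR8 and 393 (9.9%) for RANBP1. DGCR8 had 42.3, 34.9 and 44.1 CPM in shNSUN2 libraries, against 23.0, 19.6 and 21.9 CPM in FaDu libraries (log2 fold change 0.91 with SE 0.14, edgeR adjusted p = 0.00555). RANBP1 had 201, 178 and 269 CPM in shNSUN2 libraries, against 105, 100.3 and 96.9 CPM in FaDu libraries. CYP27B1, the enzyme that activates vitamin D, shares 4.1% of the exonic bases of METTL1 and fell. CYP27B1 had 1.11, 0.589 and 0.889 CPM in shNSUN2 libraries, against 4.84, 3.56 and 4.93 CPM in FaDu libraries (log2 fold change -2.36 with SE 0.29, edgeR adjusted p = 0.00240). CCDC191 shares 1.6% of the exonic bases of QTRT2 and fell (log2 fold change -1.68 with SE 0.28, edgeR adjusted p = 0.00748), whereas QTRT2 was higher without passing the test. Some larger overlaps were with genes not called. EEF1AKMT3 shares 19.3% of METTL1, ESRRA 17.5% of TRMT112 and PAX6 19.2% of ELP4. Their log2 fold changes were -0.40, 0.29 and -0.04 (edgeR adjusted p = 0.596, 0.313 and 0.890). C1orf122 shares 27.9% of the exonic bases of YRDC and had 17.1, 13.6 and 25.0 CPM in shNSUN2 libraries, against 13, 11.1 and 12.8 CPM in FaDu libraries (log2 fold change 0.60 with SE 0.23, edgeR adjusted p = 0.109).

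KTI12 and WDR6, chosen after their values were seen, had uneven FaDu libraries and did not pass the test. KTI12, a regulator of Elongator, had 22.0, 19.7 and 28.1 CPM in shNSUN2 libraries, against 3.48, 16.4 and 18.3 CPM in FaDu libraries. WDR6, the partner of FTSJ1 in anticodon loop methylation, had 47.6, 35.5 and 22.4 CPM in shNSUN2 libraries, against 11.9, 34.1 and 13.8 CPM in FaDu libraries.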
